A study of Mus musculus with 6 samples.

Results

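The marker genes used beside Pdgfrb to recognise pericytes were followed in ribosome-bound RNA of the lung. They were Cspg4, Mcam, Anpep, Kcnj8, Abcc9, Trpc6, Ndufa4l2, Cox4i2, Higd1b and Postn. The genes were chosen by name, as those whose Ensembl identifier carries one of these symbols in the GENCODE M21 annotation, and all 10 were found among the 21603 genes of the deposited tables. All 10 were also among the 12034 genes that reached 1 RPKM (reads per kilobase of exon, scaled to the library's mapped reads) in at least 3 of the 6 samples and were therefore tested.

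The RNA came from lungs at postnatal day 8 of control and Yap1,Wwtr1 iPCKO mice, labelled as strain C57BL/6, with 3 samples in each group. Every animal carried the tamoxifen-inducible Pdgfrb(BAC)-CreERT2 transgene and a Cre-dependent RiboTag allele of Rpl22, received tamoxifen soon after birth, and gave RNA that was immunoprecipitated through the HA tag on RPL22. The controls had 1 floxed copy each of Yap1 and Wwtr1 (labelled Yap1+/-;Wwtr1+/-), and the mutants had 2 floxed copies of each (labelled Yap1-/-;Wwtr1-/-), so that no group was free of recombination. The comparison asks what the loss of the remaining copies of these transcriptional co-activators does to the RNA that PDGFRβ-lineage cells translate. The model is limited by its driver, since every cell that expressed the transgene when tamoxifen was given is tagged and recombined, and since the pulldown was made from lysate of lung. By the study's description of reporter mice, this driver was not active in PDGFRα-positive fibroblasts, bronchial smooth muscle or myofibroblasts of the lung. In such bulk RNA, fewer cells of a type and less RNA per cell cannot be told apart.

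Pericytes are mural cells that share the basement membrane of capillary endothelium, stabilise the vessel and regulate its growth and tone. They have no single exclusive marker and are recognised by combinations of genes: surface proteins shared with other cell types (NG2, CD146 and CD13), channels that set membrane potential and calcium entry (an ATP-sensitive potassium channel and TRPC6), small mitochondrial proteins (NDUFA4L2, COX4I2 and HIGD1B), and in some tissues the matricellular protein periostin. YAP1 and TAZ, the product of Wwtr1, do not bind DNA themselves and act mainly through transcription factors of the TEAD family.

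The labels were first checked against the deleted genes, and Pdgfrb was set beside them. Yap1 stood at 13.2, 11.5 and 12.4 RPKM in the controls and at 5.76, 5.83 and 5.25 RPKM in the mutants. It was lower in every mutant sample, with a log2 fold change of -1.12 (SE 0.09, limma, adjusted p = 0.000175). Wwtr1 stood at 71.3, 53.8 and 56.1 RPKM in the controls and at 63.5, 60.3 and 62.2 RPKM in the mutants, so its gene-level value did not separate the groups (log2 fold change 0.05, 95% interval -0.22 to 0.31). The values cover whole genes and were not resolved by exon, so they do not show whether the floxed part of Wwtr1 was lost, and iPCKO below means the libraries labelled so. Pdgfrb itself was measured at 1666, 1369 and 1565 RPKM in the controls and at 1447, 1370 and 1193 RPKM in the iPCKO samples, with overlapping groups (log2 fold change -0.20, 95% interval -0.57 to 0.17). Depths fitted so that low RPKM values fell near whole reads put the libraries at an estimated 17.4 to 34.7 M reads in the controls. In the iPCKO samples the estimate was 14.2 to 39.6 M reads.

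The markers did not move as a set. Abcc9, Cspg4 and Kcnj8 were each about doubled in the iPCKO samples, Mcam fell to 48.4% of its control level, and the other 6 did not pass the test. A gene was called changed at an adjusted p below 0.01 (limma on log2(RPKM + 0.1), Benjamini-Hochberg over all tested genes) and an absolute log2 fold change above 0.5. By this rule 3 markers were higher and 1 was lower, where 4.11% of all tested genes were called higher and 2.68% lower, 6.79% in all. The groups did not overlap for 7 of the 10 markers, 5 with all iPCKO samples above and 2 with all below, against 35.5% of the tested genes (18.3% above and 17.1% below). The median absolute log2 fold change was 0.60 over the markers and 0.17 over all tested genes, and the median of the signed values was 0.40 against -0.0001.

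**Figure D1:**
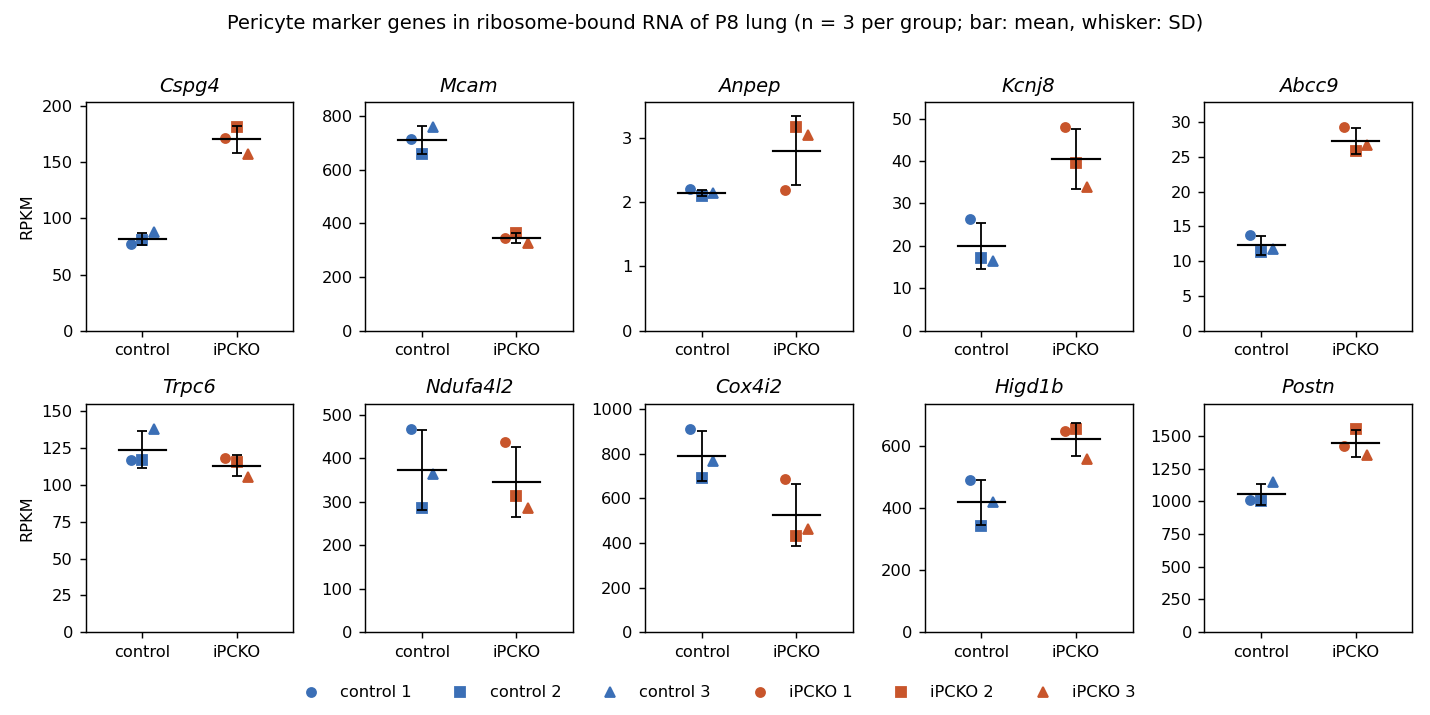
RPKM (y axis, linear and starting at 0 in each panel) of the 10 marker genes in 3 control (blue) and 3 iPCKO (orange) lung samples, with the mean as a bar and the SD as a whisker. All iPCKO samples lie above all controls for Cspg4, Kcnj8, Abcc9, Higd1b and Postn and below them for Mcam and Cox4i2, while Anpep, Trpc6 and Ndufa4l2 overlap.

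The markers spanned a wide range of levels. RPKM is scaled per length, but the exon length that entered it is not given, so the order across genes is approximate. In the controls Postn was highest at 1053 ± 79.6 RPKM (SD, n = 3), rank 6 among the tested genes, and Anpep lowest at 2.14 ± 0.05 RPKM, rank 10570. Between them stood, in falling order, Cox4i2 at 789 RPKM, Mcam at 710, Higd1b at 417, Ndufa4l2 at 372, Trpc6 at 124, Cspg4 at 81.8, Kcnj8 between 16.4 and 26.3, and Abcc9 at 12.3 RPKM. The replicate ranges of neighbours in this order overlapped only between Cox4i2 and Mcam and between Higd1b and Ndufa4l2. In the iPCKO samples the order was Postn, Higd1b, Cox4i2, Ndufa4l2, Mcam, Cspg4, Trpc6, Kcnj8, Abcc9 and Anpep. There the ranges of Higd1b and Cox4i2, of Cox4i2 and Ndufa4l2, and of Ndufa4l2 and Mcam overlapped, while Cspg4 now stood above Trpc6 in every sample. Mcam moved from rank 15 to rank 60 of the tested genes, Cox4i2 from 13 to 32, Cspg4 from 442 to 177 and Abcc9 from 4584 to 1973.

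Kcnj8 and Abcc9 were taken first because they encode parts of the same channel. Kcnj8 encodes Kir6.1, the pore of the vascular ATP-sensitive potassium channel, and Abcc9 encodes SUR2, its regulatory subunit. The genes lie side by side on the minus strand of chromosome 6 (GRCm38), Kcnj8 from 142564837 to 142571614 and Abcc9 from 142587862 to 142702315, with 16.2 kb between them. The sequences before their start sites are shown as the promoters of the neighbouring markers that rose together. They are RefSeq sequence on GRCm38, 5′ to 3′ on the minus strand, and leave out bases that lie inside the GENCODE gene. Kcnj8 covers chr6:142571615-142571864 and Abcc9 covers chr6:142702316-142702524. Capitals mark the letters GGAATG, the core of a TEAD site.
Kcnj8: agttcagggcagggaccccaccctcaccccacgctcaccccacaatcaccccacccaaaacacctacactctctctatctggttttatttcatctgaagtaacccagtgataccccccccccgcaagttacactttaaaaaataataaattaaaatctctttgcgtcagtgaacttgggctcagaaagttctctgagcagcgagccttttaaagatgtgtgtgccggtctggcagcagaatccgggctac
Abcc9: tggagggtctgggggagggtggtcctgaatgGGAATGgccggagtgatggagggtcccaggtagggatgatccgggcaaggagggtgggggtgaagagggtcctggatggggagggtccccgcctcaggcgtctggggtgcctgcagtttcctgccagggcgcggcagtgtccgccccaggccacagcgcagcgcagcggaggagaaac

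Promoter windows, from 250 bases before to 50 after the RefSeq start, were at hand for 7 of the 10 markers. They were searched on both strands for GGAATG and for ACGTG, the core of a hypoxia response element. The GGAATG of Abcc9 began 219 bases before its RefSeq start. That start lies inside the GENCODE gene, so the distance from the GENCODE start is shorter. It was the only match to these letters among the markers, where 14.7% of 32851 RefSeq windows hold them. The only ACGTG lay in Trpc6, 94 bases before its start, where 19.6% of the windows hold those letters. A match describes the sequence and does not show a bound site.

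Abcc9 stood at 13.8, 11.3 and 11.8 RPKM in the controls and at 29.3, 25.8 and 26.8 RPKM in the iPCKO samples. Every iPCKO sample was above every control, and the mean rose to 222% of the control level with a log2 fold change of 1.15 (SE 0.10, 95% interval 0.92 to 1.38, limma adjusted p = 0.000254). Kcnj8 stood at 26.3, 17.2 and 16.4 RPKM in the controls and at 48.1, 39.5 and 33.9 RPKM in the iPCKO samples. The groups were separate, and replicate 1 was highest in both of them, as it was for Abcc9. The spread of Kcnj8 was wider than that of Abcc9. The log2 fold change of Kcnj8 was 1.03 (SE 0.19, 95% interval 0.59 to 1.47, limma adjusted p = 0.0084). This call was lost when any library other than control 1 was left out (adjusted p between 0.0137 and 0.0361), and also without the filter on low values (0.0156) or without the intensity trend (0.0145). The ratio of pore to regulatory subunit was 1.91, 1.53 and 1.39 in the controls and 1.64, 1.53 and 1.27 in the iPCKO samples. These ranges overlapped, and the log2 ratio differed by -0.12 (exact permutation test, two-sided, p = 0.6). With 3 samples against 3 this exact test cannot go below p = 0.1. Kcnj11 and Abcc8, which encode the corresponding subunits of the channel in pancreatic beta cells, stayed at or below 0.239 RPKM in every sample and were not tested.

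Trpc6, a non-selective calcium-permeable channel opened by diacylglycerol, stood at 117.0, 116.6 and 138.2 RPKM in the controls and at 118.2, 115.8 and 105.1 RPKM in the iPCKO samples. The groups overlapped, and the log2 fold change of -0.13 had a 95% interval of -0.37 to 0.11, which lies within the threshold of 0.5 on both sides. Trpc6 lies on chromosome 9, 540 kb from Yap1, on the chromosome on which the mutants carry 2 floxed copies and the controls 1. Within 5 Mb of Yap1, 1 of 18 tested genes was called (5.56%), Gucy1a2, a subunit of the nitric oxide receptor, which fell from 42.8 ± 5.15 to 9.04 ± 1.46 RPKM (SD, n = 3). Trpc4, named after its values were seen because it lies 42.6 kb from Postn, was below the filter, at 0, 0.03 and 0.06 RPKM in the controls and 0.27, 0.64 and 0.28 RPKM in the iPCKO samples.

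Among the surface proteins, Cspg4 rose and Mcam fell by about the same factor. Cspg4 (chromosome 9, 56865033 to 56899870, plus strand) encodes NG2, a transmembrane chondroitin sulphate proteoglycan of pericytes, smooth muscle and glial progenitors. It stood at 77.1, 80.8 and 87.5 RPKM in the controls and at 172.1, 181.7 and 157.6 RPKM in the iPCKO samples. The lowest iPCKO sample was well above the highest control, and the log2 fold change was 1.06 (SE 0.10, 95% interval 0.83 to 1.29, limma adjusted p = 0.00033). Mcam (chromosome 9, 44134469 to 44142727, plus strand) encodes CD146, an adhesion molecule of the immunoglobulin superfamily found on mural and endothelial cells. It stood at 714, 657 and 759 RPKM in the controls and at 344, 362 and 325 RPKM in the iPCKO samples. The groups were far apart relative to their spread, and the log2 fold change was -1.04 (SE 0.12, 95% interval -1.32 to -0.77, limma adjusted p = 0.00087). Both calls, and that of Abcc9, held under all 18 alternative settings tried. Of 2 related adhesion molecules, Alcam and Bcam, 0 passed in limma (1 with an unadjusted p below 0.05), with log2 fold changes of -0.003 and 0.37.

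Anpep (chromosome 7, 79821803 to 79861059, minus strand) encodes CD13, aminopeptidase N, which is present on pericytes of the brain and on myeloid cells. It was the weakest marker, at 2.20, 2.10 and 2.13 RPKM in the controls and 2.18, 3.17 and 3.04 RPKM in the iPCKO samples. The iPCKO samples ranged from the level of the controls to above it, and the log2 fold change of 0.35 (95% interval -0.01 to 0.71, limma adjusted p = 0.177) did not pass. Macrophage markers were summed at 98.9 to 170.1 RPKM in the controls and at 331.5, 348.5 and 518.4 RPKM in the iPCKO samples. Of these markers 2 of 6 were called higher, Lyz2 and Marco, and none was at 0 in any sample. The call of Marco was lost in all 3 fits with a library left out in which it was tested. Neutrophil markers, also of myeloid cells, were summed at 71.4 to 99.0 RPKM in the controls and at 403, 1810 and 4313 RPKM in the iPCKO samples. The part of these cells in the Anpep values was not tested. A related aminopeptidase behaved otherwise. Enpep, aminopeptidase A and also a pericyte gene, stood at 28.9, 31.1 and 35.4 RPKM in the controls and at 75.5, 72.9 and 78.2 RPKM in the iPCKO samples. It was the only 1 of 6 tested aminopeptidases of its family that was called (log2 fold change 1.25, limma adjusted p = 0.0001).

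**Figure D2:**
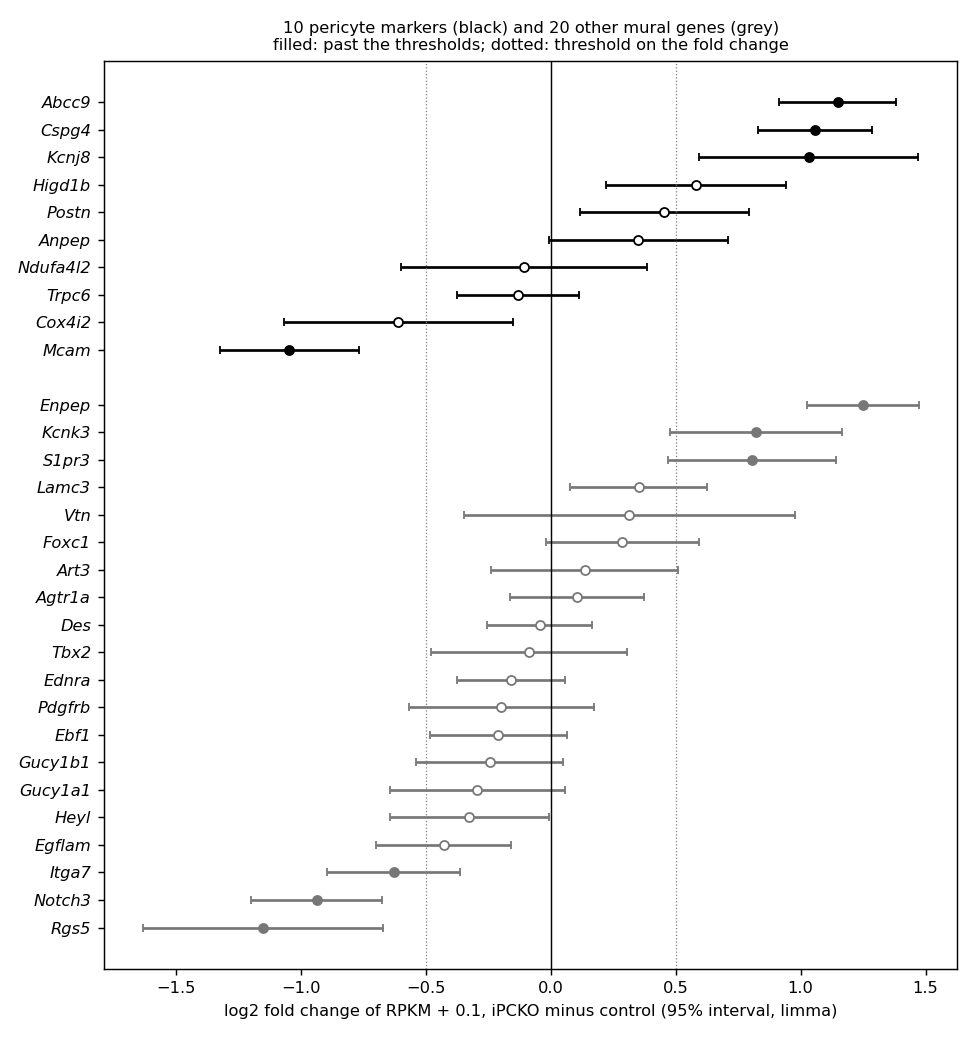
Log2 fold change of RPKM + 0.1, iPCKO minus control, with its 95% interval for the 10 markers (black) and 20 other mural genes (grey), filled where a gene passed both thresholds. In both sets the called genes lie on either side of 0, from 1.15 (Abcc9) to -1.04 (Mcam) among the markers and from 1.25 (Enpep) to -1.15 (Rgs5) among the other mural genes.

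The 3 mitochondrial markers encode small proteins of the inner membrane that belong to the respiratory chain or act beside it, and each has a widely expressed counterpart. Ndufa4l2 (chromosome 10, 127514967 to 127517154, plus strand) is a hypoxia-induced relative of NDUFA4. It stood at 468, 286 and 363 RPKM in the controls and at 437, 313 and 285 RPKM in the iPCKO samples. The groups overlapped widely, and the log2 fold change of -0.11 (95% interval -0.60 to 0.39, limma adjusted p = 0.788) turned positive without control 1 (0.07) or without iPCKO 3 (0.02).

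Cox4i2 (chromosome 2, 152754173 to 152765037, plus strand) encodes the lung-enriched and oxygen-regulated isoform of subunit IV of cytochrome c oxidase. It stood at 912, 689 and 765 RPKM in the controls and at 685, 430 and 460 RPKM in the iPCKO samples. All iPCKO samples were below all controls, though the highest iPCKO sample only just so. The log2 fold change of -0.61 (95% interval -1.07 to -0.15, limma adjusted p = 0.0786) did not pass, while without iPCKO 1, whose value was the highest of its group, it was -0.82 with an adjusted p of 0.0095. Higd1b (chromosome 11, 102835849 to 102838040, plus strand) is a member of the hypoxia-inducible domain family enriched in pericytes. It stood at 488, 343 and 420 RPKM in the controls and at 647, 655 and 558 RPKM in the iPCKO samples. All iPCKO samples were above all controls, and the log2 fold change of 0.58 (95% interval 0.22 to 0.94, limma adjusted p = 0.0403) missed the threshold of 0.01.

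None of the widely expressed counterparts, Ndufa4, Cox4i1 and Higd1a, passed the test (log2 fold changes of 0.05, 0.14 and 0.05). Cox4i2 was 6.07, 5.40 and 5.83 times Cox4i1 in the controls and 3.96, 3.03 and 3.35 times in the iPCKO samples. These ranges did not overlap, and the log2 ratio differed by -0.75 (exact permutation test, p = 0.1, the smallest it allows, and 0.25 adjusted over 5 such pairs). Higd1b was 29.0, 20.4 and 26.0 times Higd1a in the controls and 34.7, 41.3 and 32.4 times in the iPCKO samples. This log2 ratio was higher by 0.53 without overlap (exact permutation test, p = 0.1, adjusted 0.25), whereas that of Ndufa4l2 to Ndufa4 differed by -0.16 with overlapping values (exact p = 0.6). Of the 7 tested respiratory relatives 0 were called by limma (1 with an unadjusted p below 0.05), with log2 fold changes of 0.05 to 0.32.

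Ratios of the 3 genes to each other are given as a description, since they were chosen after the values had been seen and none of the genes passed on its own. Higd1b was 0.54, 0.50 and 0.55 times Cox4i2 in the controls and 0.94, 1.52 and 1.21 times in the iPCKO samples. This log2 ratio was 1.19 higher, and those of Ndufa4l2 to Cox4i2 and of Higd1b to Ndufa4l2 were 0.50 and 0.69 higher, each without overlap between the groups.

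**Figure D3:**
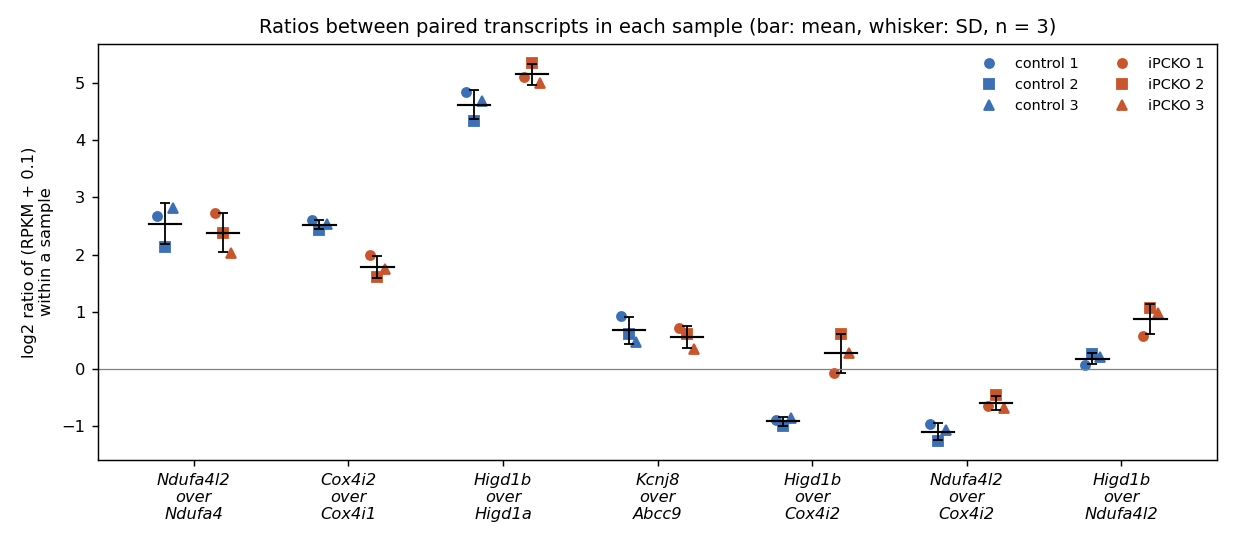
Log2 ratio of RPKM + 0.1 between paired transcripts within each of 3 control (blue) and 3 iPCKO (orange) samples, with the mean as a bar and the SD as a whisker. Cox4i2 over Cox4i1 lies lower in every iPCKO sample and Higd1b over Cox4i2 higher in every one, while Ndufa4l2 over Ndufa4 and Kcnj8 over Abcc9 overlap.

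These 3 transcripts are short, with 1095 (Ndufa4l2), 847 (Higd1b) and 788 (Cox4i2) bases of exon in the annotation, and replicate 1 was the highest of its group for Ndufa4l2 and Cox4i2 in both groups. For Higd1b it was highest among the controls only (0.24 above their mean on the log2 scale), and among the iPCKO samples replicate 2 was slightly higher. For Ndufa4l2 replicate 1 was 0.36 above the group mean on the log2 scale among the controls and 0.37 above it among the iPCKO samples, and for Cox4i2 0.22 and 0.41 above it. The 462 tested genes with exons of up to 1.2 kb shared this in part, with a median deviation of 0.13 in control 1 and 0.11 in iPCKO 1 and negative medians in the other 4 samples. Their median log2 fold change was 0.17. With each sample centred within 20 bins of exon length, an alternative added after seeing the data, Cox4i2 was at -0.77 (limma adjusted p = 0.0137), Higd1b at 0.42 (0.0732) and Ndufa4l2 at -0.27 (0.341), and the 4 called markers stayed called.

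**Figure D4:**
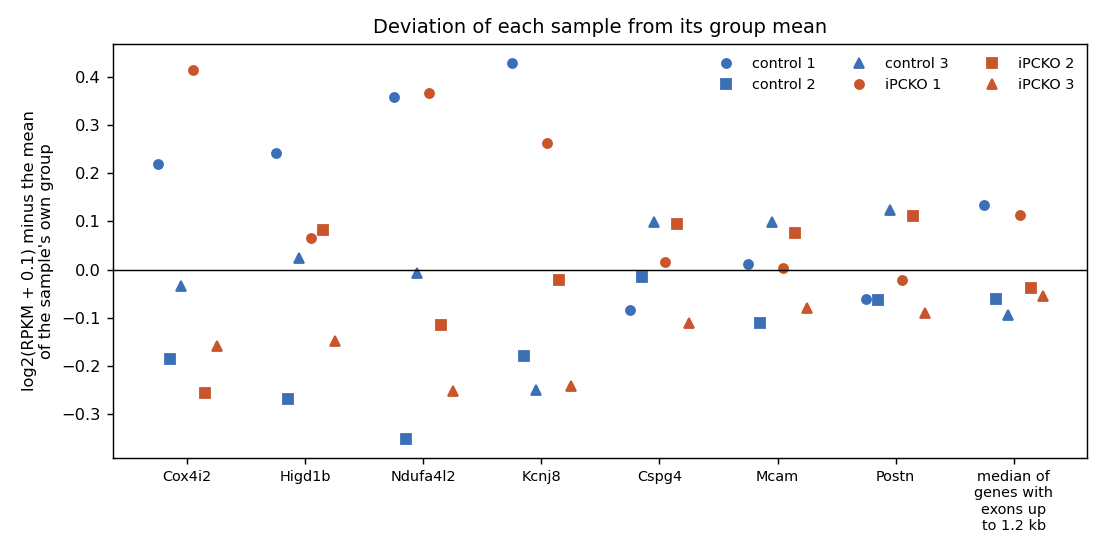
Deviation of each sample's log2(RPKM + 0.1) from the mean of its own group (y axis) for 7 markers and, at the right, the median over the 462 genes with exons of up to 1.2 kb. Replicate 1 (circles) is highest in both groups for Cox4i2, Ndufa4l2 and Kcnj8, and the short genes show a smaller deviation of the same sign. Abcc9, not shown, was also highest in replicate 1 of both groups. Kcnj8 and Abcc9 are longer, with 2548 and 8373 bases of exon.

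Postn (chromosome 3, 54361109 to 54391037, plus strand) encodes periostin, a secreted protein of the matrix that binds integrins and collagen. It stood at 1008, 1006 and 1145 RPKM in the controls and at 1419, 1556 and 1355 RPKM in the iPCKO samples. All iPCKO samples were above all controls, but the log2 fold change of 0.46 (95% interval 0.12 to 0.79) was under the threshold and the limma adjusted p was 0.0753. Postn lies 3.06 Mb from Wwtr1, and 1 of 30 tested genes within 5 Mb of Wwtr1 was called (3.33%), P2ry14, a receptor for UDP-sugars, which fell from 214.7 ± 7.47 to 110.5 ± 21.9 RPKM (SD, n = 3). This call was lost when any library other than iPCKO 1 was left out (limma adjusted p up to 0.0144). Markers of myofibroblasts, cells that also make periostin, were summed at 131 to 150 RPKM in the controls and 219 to 279 RPKM in the iPCKO samples. Aspn made up most of this sum and was the only 1 of the 3 called (0.91 on the log2 scale, lost without control 3 at an adjusted p of 0.0133 in limma), while Hhip was at 0.09 and Fgf18 at -0.29. None was at 0, and their part in the Postn values was not tested.

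Of 9 matrix genes listed as partners of periostin, all were tested, 4 were called and these 4 were higher. Col6a3, a chain of the microfibrillar collagen VI, stood at 68.5, 86.4 and 63.3 RPKM in the controls and at 219.6, 292.5 and 274.8 RPKM in the iPCKO samples, a log2 fold change of 1.85 (limma adjusted p = 0.0002). Of the other collagen VI chains listed, Col6a1 rose by 1.19 and Col6a2 by 0.66 on the log2 scale. Tnc, the glycoprotein tenascin C, rose by 1.03. The calls of Col6a2 and Tnc were lost in 4 of 6 fits with a library left out, all but those without control 2 or iPCKO 1, and that of Tnc also without the filter on low values. The 5 that did not pass ranged from -0.81 to 0.64.

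**Figure D5:**
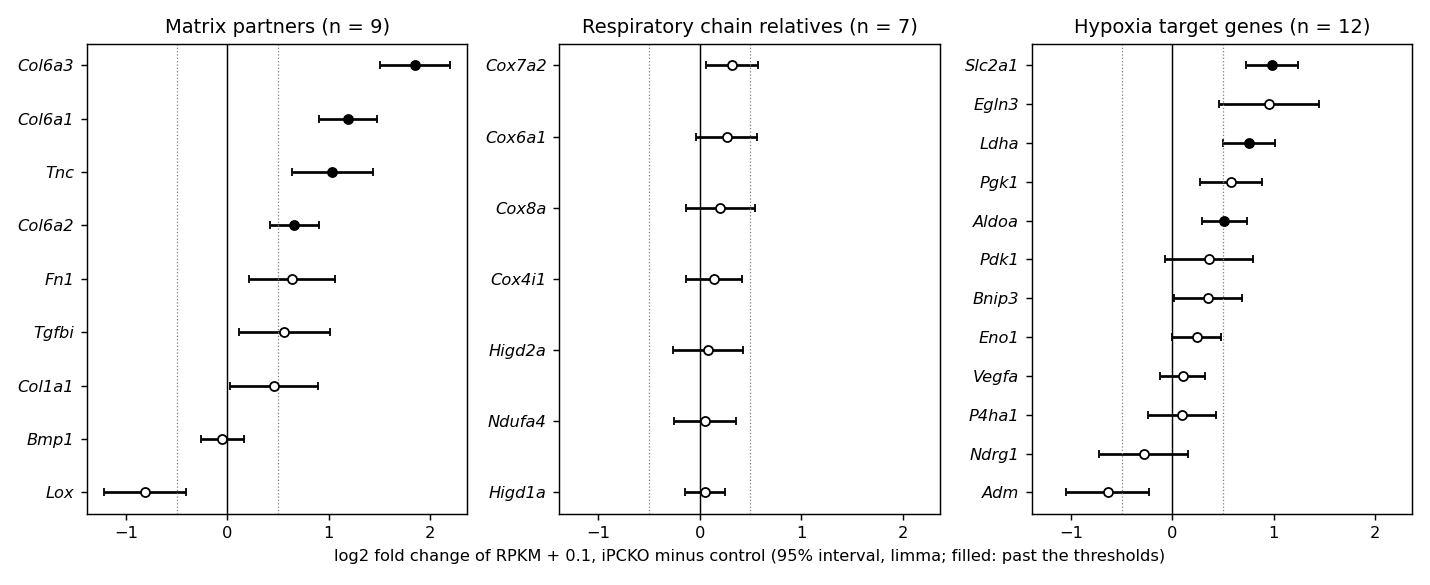
Log2 fold change of RPKM + 0.1, iPCKO minus control, with its 95% interval for 9 matrix partners of periostin, 7 respiratory chain relatives and 12 hypoxia target genes, filled where a gene passed both thresholds. The 4 filled matrix genes are all higher, no respiratory relative passed, and 3 of the hypoxia genes are higher.

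Because Ndufa4l2, Cox4i2 and Higd1b are linked to hypoxia, 14 target genes of hypoxia-inducible factors were listed beside them, and 12 were tested. The called ones were Slc2a1, the glucose transporter GLUT1, at 0.98 on the log2 scale (limma adjusted p = 0.0008), Ldha, lactate dehydrogenase A, at 0.76 (0.0030), and the glycolytic enzyme Aldoa at 0.51 (0.0088). Slc2a1 kept its call in all 6 fits with a library left out, Ldha in 3 (lost without control 3, iPCKO 2 or iPCKO 3) and Aldoa in 0 (adjusted p 0.0108 to 0.0382), and no gene of the list exceeded a log2 fold change of 1. None was called lower by limma (1 with an unadjusted p below 0.05), and the median over the 12 was 0.36. Slc2a1 was low, at 1.80, 1.95 and 1.86 RPKM in the controls and at 3.59, 4.06 and 3.74 RPKM in the iPCKO samples.

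Calls in both directions were also made among other mural genes. Of 21 listed genes, 20 were tested and 6 were called, 3 in each direction, with a median log2 fold change of -0.12. Beside Enpep, the potassium channel gene Kcnk3 and the sphingosine-1-phosphate receptor gene S1pr3 rose by 0.82 and 0.81 on the log2 scale. Rgs5, a regulator of G-protein signalling, stood at 155.9, 84.0 and 115.3 RPKM in the controls and at 45.4, 60.7 and 49.8 RPKM in the iPCKO samples. It fell without overlap between the groups, by 1.15 on the log2 scale (limma adjusted p = 0.0078). Notch3, the mural Notch receptor, fell by 0.94 and the laminin receptor subunit Itga7 by 0.63. Enpep and Notch3 kept their calls in all 6 fits with a library left out, so 1 gene in each direction did. Rgs5 kept its call only without control 2, S1pr3 only without iPCKO 1, Kcnk3 only without control 1 and Itga7 in none (limma adjusted p up to 0.0391 over these 4 genes), and all 4 calls were lost without the filter or without the intensity trend.

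The values above are relative to all reads of the pulldown, so each marker was also set against Pdgfrb in the same sample. Pdgfrb itself had a log2 fold change of -0.20 with overlapping groups. Its subtraction moves the difference of every marker up by the same amount. Per Pdgfrb transcript, Cspg4 differed by 1.26 on the log2 scale, Abcc9 by 1.35, Kcnj8 by 1.23, Higd1b by 0.78 and Postn by 0.65, all with iPCKO above control in every sample. Mcam differed by -0.85 and Cox4i2 by -0.41, with iPCKO below control in every sample. These 7 had the smallest exact permutation p of 0.1, which was 0.143 adjusted over the 10 markers, and the other 3 overlapped (Anpep 0.55, Ndufa4l2 0.09 and Trpc6 0.07). Postn was at 0.605 to 0.735 of the Pdgfrb level in the controls and at 0.981 to 1.14 of it in the iPCKO samples.

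Genes listed as markers of other cells were detected, and some of these lists differed between the groups. Of 24 markers of leukocytes, neutrophils, macrophages and platelets, 17 were called higher and 0 lower by limma. At an unadjusted limma p below 0.05 these counts were 22 and 0. Among the 17, Marco and Gp9 were tested in only 3 of the 6 fits with a library left out. For Gp9 these were the fits without a control, so it passed the filter through the iPCKO samples alone and could only be called higher. Marco kept its call in 0 of its fits, and Ppbp and Cxcr2 kept theirs in 1 of 6 each. The neutrophil markers summed to 71.4 to 99.0 RPKM in the controls and to 403 to 4313 RPKM in the iPCKO samples. The 7 tested smooth muscle genes, relevant to Cspg4 and Mcam, summed to 1272 to 1450 RPKM in the controls and 1410 to 1537 RPKM in the iPCKO samples, with 2 called higher and 1 lower. The 8 endothelial genes, relevant to Mcam, summed to 147 to 155 RPKM and 152 to 171 RPKM, with overlapping groups. Of them 1 was called, Kdr, which was higher (limma, 2 higher and 1 lower at an unadjusted p below 0.05). Their log2 fold changes ranged from -0.45 to 0.77. Epithelial genes summed to 514 to 601 RPKM and 774 to 820 RPKM (1 of 6 tested called, higher), fibroblast genes to 272 to 317 RPKM and 255 to 327 RPKM (1 of 7, lower), mesothelial genes to 3.94 to 5.58 RPKM and 7.35 to 9.76 RPKM (1 of 2, higher), and erythrocyte genes to 1541 to 1891 RPKM and 977 to 4487 RPKM (0 of 3 by limma, also at an unadjusted p below 0.05). No marker of these lists was at 0 in any sample, and their part in the markers' values was not tested. Whether this RNA came from other cells or from the tagged cells was also not tested.

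Genes whose pattern over the 6 samples was most like that of Abcc9 and of Mcam were taken by the root mean square difference of centred log2 values. This distance includes the difference between the groups, so similar fold changes follow from the choice. For Abcc9 these were Trib2, a pseudokinase gene (0.05), Mgll, monoglyceride lipase (0.08), and Enpp2, which encodes autotaxin (0.12), with log2 fold changes of 1.21, 1.10 and 1.18. For Mcam they were Itga1, the integrin alpha chain of a collagen receptor (0.03), Fign (0.06) and Rap2a, a small GTPase (0.06), with log2 fold changes of -0.99, -0.95 and -1.08. Itga1 was abundant, at 286.8 RPKM on average in the controls and 143.9 RPKM in the iPCKO samples, whereas Fign was near 1 RPKM and did not pass (limma adjusted p = 0.0126).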

How the data were processed

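The authors mapped stranded paired-end reads to mm10 with TopHat, obtained gene counts from HTSeq 0.6.1 and deposited RPKM per Ensembl gene for each sample. Which exon length entered is not given in the sources used here, and the files hold no counts. Symbols and 1-based coordinates came from GENCODE M21 (21375 of 21603 genes), promoters from RefSeq. For 75.1% to 77.1% of low values, RPKM times exon length lay within 0.02 of a whole read, which gave the library depths.

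Genes with 1 RPKM in at least 3 samples were tested on log2(RPKM + 0.1) with limma 3.58.1 (R 4.3.3, intensity trend, Benjamini-Hochberg). Fold changes on this scale understate those of low genes. On simulated data for iPCKO against control (12034 genes, 200 changed), 57% of changes of 1 and 90% of changes of 2 on the log2 scale were recovered, with 1 false call. The simulated noise was independent between genes, so it does not measure false calls from deviations that genes share. Ratios used the exact two-sided permutation test in Python 3.11.15 with scipy 1.17.1. The sample titles number the replicates within a group and name no animals, litters or days, so p-values measure only the spread between these samples. The markers, gene lists and tests were chosen with earlier results of these data known. Named genes are mainly the markers, deleted genes, Pdgfrb, the pair partners and the called mural, partner and hypoxia genes. Called genes near the deleted loci and the nearest patterns to Abcc9 and Mcam are also named. Called markers of other cells are named only in part, and some genes that were not called are named for comparison. Alternatives were the pseudocount, filter, scaling, trend, sample weights, replicate block, thresholds, each library left out and, added after seeing the data, exon-length bins.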

Additional observations from a re-analysis of the deposited data

How the results depend on the processing

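Of 18 alternatives each, all kept the calls of Cspg4, Abcc9 and Mcam and 11 kept that of Kcnj8. The number of called markers was 8 (6 higher, 2 lower) with sample weights, which added Anpep, Higd1b, Cox4i2 and Postn, and 3 to 4 with a library left out (2 to 3 higher, 1 to 2 lower). All called genes numbered 1590 with sample weights, 1313 at an adjusted p below 0.05, 411 at a log2 fold change above 1, and 363 to 804 with a library left out. Deviations of same-numbered samples correlated at 0.02 to 0.24, within the range of differently numbered samples (-0.30 to 0.27), which leaves a pairing undecided. With the replicate block 922 genes and the same 4 markers were called. Its limma adjusted p was lower for Kcnj8 (0.0005) and Cox4i2 (0.028) and higher for Mcam (0.0024) and Postn (0.124). Called other mural genes were 2 without the filter, without the intensity trend and at a log2 fold change above 1, and 2 to 3 with a library left out. Called relatives and partners were 3 after quantile normalization, 10 with sample weights and 3 to 7 with a library left out. Called hypoxia targets were 5 with sample weights, 6 at an adjusted p below 0.05, 0 at a log2 fold change above 1 (limma, where the largest value was 0.98) and 1 to 2 with a library left out.

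Near Yap1, called genes were 2 with no filter, with sample weights, with the replicate block and within 10 Mb, 3 at an adjusted p below 0.05, 0 within 1 Mb (limma, 2 at an unadjusted p below 0.05) and 1 to 2 with a library left out. Near Wwtr1 they were 2 with no filter, with the replicate block, with exon-length bins and at an adjusted p below 0.05, 3 with sample weights and within 10 Mb, and 0 within 1 Mb (limma, 1 at an unadjusted p below 0.05) or at a log2 fold change above 1, with 0 to 1 when a library was left out. The log2 ratio of Abcc9 to the nearly absent Abcc8 differed by 0.55 and took the values 0.99 with a pseudocount of 1 and -0.074 with 0.01, so it is set by the pseudocount. The log2 fold change of Ndufa4l2 ranged from -0.29 to 0.074 with a library left out (0.074 without control 1, 0.02 without iPCKO 3), and that of Wwtr1 from -0.029 (without control 2) to 0.17, with -0.00012 after quantile normalization. Taken as the median instead of the mean over a list, group differences in marker level on the log2 scale were 1.97 (leukocyte), 4.60 (neutrophil), 0.81 (macrophage), 1.37 (platelet), 0.20 (endothelial), -0.41 (fibroblast), -0.28 (myofibroblast, against 0.24 for the mean), 0.90 (smooth muscle) and 0.40 (epithelial), and with a pseudocount of 1 they were 1.48 (platelet) and 0.41 (epithelial). Where no cause is named, the cause was not tested. Depth limits Anpep most among the markers, with about 151 to 518 reads a sample.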
